A study of Mus musculus with 20 samples.

Results

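Imprinted genes, which are transcribed from the copy inherited from 1 parent, were followed across 7 clonal fibroblast lines by way of 37 genes of the mouse. The array's platform annotation assigned 98 probe sets to 34 of them, out of 45037 probe sets that were not controls. Rtl1, Dio3 and Zrsr1 had no probe set and were not analysed here. H19, a noncoding RNA, was reached through 1 probe set that is also assigned to the microRNA gene Mir675, and 6 of the 7 probe sets of Snrpn are shared with Snurf, which lies in the same transcript.

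The lines are clones of Swiss 3T3, an immortalized mouse embryo fibroblast strain, and each line is 1 clone. Preadipose lines, which can turn into fat cells, were Swiss 19 with 2 arrays and Swiss 2, Swiss 8 and Swiss 9 with 3 arrays each. Non-adipogenic lines, which cannot, were Swiss 3, Swiss 5 and Swiss 22 with 3 arrays each. The study set the first class against the second to find genes that mark committed fat cell precursors. Both classes grew in the same medium with bovine serum under conditions that do not start differentiation, and total RNA was taken before the cells stopped dividing.

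Imprinted genes lie in clusters, and each cluster is governed by a control region that carries DNA methylation on 1 parental copy. At the Dlk1-Dio3 cluster the paternal copy gives the protein-coding genes Dlk1, Rtl1 and Dio3, and the maternal copy gives the noncoding RNAs Meg3, Rian and Mirg, which host small regulatory RNAs. Several members are known from fat tissue: Dlk1 (Pref-1) and the MAGE family protein Ndn (necdin) are known to hold back fat cell differentiation, and Mest is known to follow the expansion of fat tissue in mice. The array does not separate the parental copies, so every value is their sum. In these bulk samples fewer expressing cells and less RNA per cell cannot be told apart.

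Promoter sequences, 1 window per gene, are shown for 5 members whose levels differed most between lines or that are known from fat cells, because the proteins ZFP57 and YY1, which bind imprinted control regions, have known recognition motifs. The sequences come from RefSeq on GRCm38.p6 and cover 250 bases before to 50 bases after the start of transcription. Both strands were searched for TGCCGC, the ZFP57 motif, and for AANATGGC, the YY1 motif, which do not overlap each other in the windows shown. Capitals mark a ZFP57 match, which in each window shown lies on the opposite strand and therefore reads GCGGCA. Names are followed by the coordinates, and all 5 windows are on the plus strand.
Meg3, chr12:109540746-109541045: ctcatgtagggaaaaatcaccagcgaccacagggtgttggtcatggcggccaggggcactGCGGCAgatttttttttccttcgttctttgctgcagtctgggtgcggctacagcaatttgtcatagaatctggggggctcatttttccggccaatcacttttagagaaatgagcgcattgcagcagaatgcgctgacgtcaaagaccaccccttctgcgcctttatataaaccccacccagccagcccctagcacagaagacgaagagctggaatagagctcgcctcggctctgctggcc
Mest, chr6:30737800-30738099: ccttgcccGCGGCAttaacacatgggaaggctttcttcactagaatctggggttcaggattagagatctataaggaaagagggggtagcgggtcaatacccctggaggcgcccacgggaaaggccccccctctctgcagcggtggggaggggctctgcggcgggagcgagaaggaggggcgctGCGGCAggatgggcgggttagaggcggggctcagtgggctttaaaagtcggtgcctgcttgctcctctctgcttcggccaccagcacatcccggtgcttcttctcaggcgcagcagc
Plagl1, chr10:13090582-13090881: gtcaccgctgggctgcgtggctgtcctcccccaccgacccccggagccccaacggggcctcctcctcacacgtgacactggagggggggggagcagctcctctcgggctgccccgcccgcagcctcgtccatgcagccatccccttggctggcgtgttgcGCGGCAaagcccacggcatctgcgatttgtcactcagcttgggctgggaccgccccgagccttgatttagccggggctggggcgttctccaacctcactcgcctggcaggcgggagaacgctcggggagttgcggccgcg
Dlk1, chr12:109452573-109452872: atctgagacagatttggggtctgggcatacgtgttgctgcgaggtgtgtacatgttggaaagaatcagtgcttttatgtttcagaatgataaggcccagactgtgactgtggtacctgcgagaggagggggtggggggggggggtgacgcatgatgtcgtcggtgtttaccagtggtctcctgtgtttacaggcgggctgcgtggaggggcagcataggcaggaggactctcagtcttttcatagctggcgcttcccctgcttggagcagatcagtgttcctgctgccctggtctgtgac
Ndn, chr7:62348027-62348326: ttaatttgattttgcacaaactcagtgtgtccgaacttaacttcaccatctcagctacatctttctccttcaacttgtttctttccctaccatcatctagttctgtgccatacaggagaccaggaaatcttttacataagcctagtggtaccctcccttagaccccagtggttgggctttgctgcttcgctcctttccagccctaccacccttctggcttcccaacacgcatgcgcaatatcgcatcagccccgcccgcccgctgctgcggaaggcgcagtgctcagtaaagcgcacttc

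The Meg3 and Plagl1 windows held 1 ZFP57 match each, the Mest window held 2, and those of Dlk1 and Ndn held none. The table has 1 further Meg3 window and 2 further Mest windows, and the Meg3 one and 1 of Mest held no match. Among 44 promoter windows of 30 members in the table, 9 windows (20.455%) of 8 genes held that motif, beside 11.607% of all 32851 promoter windows. Of the further Mest windows, that at 30737803-30738102 overlaps the one shown and holds the same 2 matches, yet both count among the 9. The 44 also include windows of Dio3 and Zrsr1, which had no probe set. The YY1 motif was in 3 of the 44 windows (6.818%), beside 6.052% of all. Members' windows had a median of 14 CpG dinucleotides, against 7 in all windows, and the ZFP57 motif itself contains a CpG. A match describes the letters only and was not tied to binding in these cells.

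The noncoding RNAs of the Dlk1-Dio3 cluster are precursors of microRNAs, and 1 mature sequence per host is shown to mark which small RNAs lie in the transcripts measured here. The seed, bases 2 to 8, is in capitals. RefSeq places 1 hairpin with a Meg3 host, 3 with Rian and 10 with Mirg on chromosome 12 of GRCm38.p6, plus strand. The 3 seeds differ from each other, and the microRNAs themselves were not measured on this array.
mmu-miR-770-5p, in Meg3: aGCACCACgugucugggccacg
mmu-miR-370-3p, in Rian: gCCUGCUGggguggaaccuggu
mmu-miR-410-3p, in Mirg: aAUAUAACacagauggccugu

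Levels are given as scaled intensity, in which each array was scaled linearly to a trimmed mean of 500. A line counts as above background for a probe set where its mean was over the background level, the 95th percentile of 27 bacterial control probe sets without spiked RNA, which was between 76.5 and 143 in the lines. Brightness, read from 9 hybridization spikes, split the arrays into 11 dim and 9 bright. Every array of Swiss 2, Swiss 8 and Swiss 9 was dim, as were 2 of Swiss 3. Bright arrays were those of Swiss 19, Swiss 5 and Swiss 22 and 1 of Swiss 3. All 8 fibroblast markers were above background in all 7 lines. Of 24 measured markers of other cell types, 9 were above background in no line (Pecam1, Ptprc, Itgam, Cdh1, Snap25, Pou5f1, Nanog, Zfp42 and Myog) and 10 in some lines. The other 5 were above it in all lines, namely the leukocyte markers Cd14 and Cd68, the epithelial markers Epcam and Krt8, and the muscle marker Des, with Cd14 at 881 to 1059 in preadipose and 864 to 1112 in non-adipogenic lines. The 4 neural markers, of which Snap25 was above background in no line, summed to 713 to 834 in preadipose and 464 to 602 in non-adipogenic lines. Of these, Tubb3 alone had line means without overlap, averaging 413 in preadipose and 189 in non-adipogenic lines. Map2 averaged 131 in preadipose and 116 in non-adipogenic lines, and Gfap went the other way, at 166 in preadipose and 186 in non-adipogenic lines. The sums of the 5 other such lists overlapped between the classes. The summed level of the 8 fibroblast markers ran from 323595 to 406401 in preadipose lines and from 267063 to 284450 in non-adipogenic lines. Among these single genes only Vim had line means without overlap. Thy1 (7490 against 8989) and Pdgfrb (2515 against 2798) averaged lower in preadipose than in non-adipogenic lines, and the rest averaged higher. The summed level of the 5 measured markers of dividing cells ran from 31411 to 48343 in preadipose lines and from 16372 to 33975 in non-adipogenic lines. Of these, only Pcna had line means without overlap, averaging 16551 in preadipose and 9237 in non-adipogenic lines. Top2a was nearly level, at 4190 in preadipose and 4175 in non-adipogenic lines, and the rest averaged higher in preadipose lines. The part of these marker lists in the results below was not tested.

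Of the 98 probe sets, 70 were above background in at least 1 line, covering 26 genes, and 46 were above background in every line. Differences between the clones were frequent among them. The moderated F test of limma, fitted on 20 arrays and adjusted over all probe sets with a threshold of 0.05, called 34 of the 98 among the 4 preadipose lines, where it called 15.2% of all probe sets. Among the 3 non-adipogenic lines it called 33 of the 98, where it called 11.1% of all. Counting only probe sets above background in at least 1 line, the background shares were 20.2% among preadipose and 14.8% among non-adipogenic lines. All called members were above background, and they belonged to 15 genes. Meg3 alone gave 9 of the 34 calls among preadipose and 10 of the 33 among non-adipogenic lines. With 1 probe set per gene, 13 members were called among preadipose lines, beside 4204 of 18193 genes. Among non-adipogenic lines 11 members were, beside 2986 genes. Of the 34 genes with a probe set, only H19, without 1 of its own, is left out of that count. Snrpn enters it by its 1 unshared probe set, which is not its brightest.

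Meg3, the noncoding RNA of the maternal copy, separated the clones most widely within the Dlk1-Dio3 cluster. On its brightest probe set, 1439380_x_at, the arrays read 2802, 3120 and 2601 in Swiss 2, 1363, 901 and 2050 in Swiss 8, 3341, 3001 and 3146 in Swiss 9, and 7278 and 5214 in Swiss 19. In the non-adipogenic lines they read 16053, 18132 and 14984 in Swiss 3, 3279, 2769 and 3379 in Swiss 5, and 4287, 3754 and 3885 in Swiss 22. All 3 arrays of Swiss 3 lay above every other array, and all 3 of Swiss 8 lay below every other array. The mean of Swiss 3 was 11.4 times that of Swiss 8 and 2.62 times that of Swiss 19, the next highest line. Lines differed within both classes (limma F test, adjusted p = 1.04e-05 among preadipose and 4.88e-08 among non-adipogenic lines). With the dim arrays alone, which hold Swiss 2, Swiss 8 and Swiss 9, the first value was 0.0140, and with the bright arrays alone the second was 0.00402.

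Meg3 has 10 further probe sets, and all of them were above background in at least 1 line. Swiss 3 was highest on all 11. Line means of the other 10 correlated with those of the brightest one with Pearson's r between 0.50 and 0.991 over 7 lines, a description of probe sets that share the same arrays. On 1452183_a_at, second in brightness, the preadipose means were 1969 (Swiss 2), 1165 (Swiss 8), 2261 (Swiss 9) and 4007 (Swiss 19), against non-adipogenic means of 13703 (Swiss 3), 2257 (Swiss 5) and 2518 (Swiss 22). The probe set 1436057_at gave the lowest correlation, with 548, 298, 222 and 218 in the preadipose lines in the same order, against 652, 275 and 245 in the non-adipogenic ones. It set Swiss 2 beside Swiss 3, where the brighter ones set Swiss 19 second. The dimmest, 1452906_at, was above background in Swiss 19 and Swiss 3 only, at 338 in Swiss 19 and 589 in Swiss 3.

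Rian, a noncoding RNA downstream of Meg3 that hosts small nucleolar RNAs, was lowest in Swiss 2 and Swiss 8. Its brightest probe set, 1452899_at, read 1178, 1042 and 1319 in Swiss 2, 562, 809 and 1215 in Swiss 8, 2283, 2662 and 2285 in Swiss 9, and 2083 and 1882 in Swiss 19. The non-adipogenic arrays read 3212, 2919 and 3149 in Swiss 3, 1868, 2670 and 2530 in Swiss 5, and 3640, 4665 and 4248 in Swiss 22. Swiss 22 held the 3 highest arrays, and the classes overlapped through Swiss 9 and Swiss 5. The F test called both classes (limma, adjusted p = 1.17e-04 among preadipose and 0.00749 among non-adipogenic lines). The call among non-adipogenic lines was lost with a pseudocount of 4 (0.0712) and with scaling before the pseudocount (0.0926). Its second probe set followed closely (r = 0.975 over 7 lines), while the 2 dimmer ones correlated with it at 0.304 and 0.663.

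Mirg, the noncoding host of a large microRNA cluster, was highest in Swiss 3 as Meg3 was. On 1440097_at the arrays read 755, 798 and 529 in Swiss 2, 284, 416 and 53.0 in Swiss 8, 561, 630 and 451 in Swiss 9, and 777 and 724 in Swiss 19. In non-adipogenic lines they read 1530, 1880 and 1534 in Swiss 3, 572, 437 and 328 in Swiss 5, and 678, 610 and 613 in Swiss 22. Apart from Swiss 3, every line overlapped its neighbour in the order of levels. The lines differed within both classes (limma F test, adjusted p = 0.00569 among preadipose and 5.42e-05 among non-adipogenic lines), and the first of these calls was lost with the dim arrays alone (adjusted p = 0.0647) and with scaling before the pseudocount (0.0521). Over the 7 lines, Mirg followed Meg3 with r = 0.954 and Spearman's rho = 0.786, and Rian followed Meg3 with r = 0.609 and rho = 0.714. Both are descriptions over 7 points from shared arrays, and the first is carried in part by Swiss 3, which is highest for both genes.

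Dlk1, the paternal protein-coding gene of the same cluster and a transmembrane inhibitor of fat cell differentiation, was above background in all lines, with another order. Its brightest probe set, 1449939_s_at, read 40728, 45458 and 45848 in Swiss 2, 24524, 27127 and 28439 in Swiss 8, 22877, 21558 and 20848 in Swiss 9, and 25432 and 24735 in Swiss 19. The non-adipogenic arrays read 18571, 19180 and 18063 in Swiss 3, 19053, 16220 and 12782 in Swiss 5, and 29138, 31759 and 30132 in Swiss 22. Swiss 2 lay above all other arrays and Swiss 22 came next, so the class did not set the order. The highest line mean was 2.75 times the lowest, and lines differed within both classes (limma F test, adjusted p = 1.1e-05 among preadipose and 3.21e-06 among non-adipogenic lines). Over the 7 lines Dlk1 correlated with Meg3 at r = -0.235 and with Rian at r = -0.296. The second Dlk1 probe set lay near background, between 50.2 and 162, and was called in neither class.

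**Figure D1:**
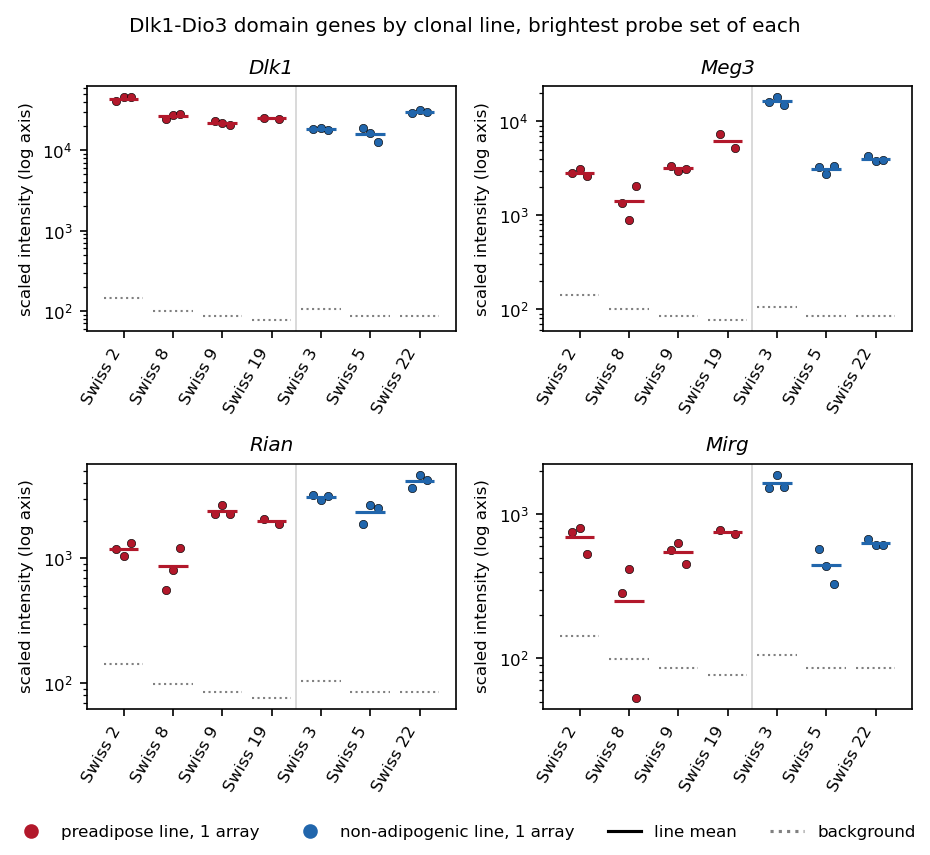
Scaled intensity (log axis) of the brightest probe set of Dlk1, Meg3, Rian and Mirg on each of 20 arrays, by clonal line, with preadipose lines on the left in red and non-adipogenic lines on the right in blue; bars are line means and dotted lines the background of each line. Swiss 3 stands highest for Meg3 (mean 16390) and Mirg (mean 1648), Swiss 22 for Rian (mean 4184) and Swiss 2 for Dlk1 (mean 44011).

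Plagl1, a paternally expressed zinc finger transcription factor known to halt the cell cycle, had the largest class difference of the members. On 1426208_x_at the arrays read 23.5, 17.4 and 89.5 in Swiss 2, 10.9, 45.2 and 117 in Swiss 8, 202, 154 and 231 in Swiss 9, and 210 and 194 in Swiss 19. In non-adipogenic lines they read 4302, 5303 and 4464 in Swiss 3, 904, 553 and 783 in Swiss 5, and 654, 1048 and 890 in Swiss 22. No array of a preadipose line reached any array of a non-adipogenic line. Swiss 2 and Swiss 8 were not above background, and Swiss 3 was 5.43 times Swiss 22, the next highest line. The log2 difference between the classes was -1.76 ± 0.48 (SE), with an unadjusted p of 0.00683 that did not pass adjustment (limma on 7 line means, adjusted p = 0.166). With Swiss 3 left out the difference was -1.12 (adjusted p = 0.0594). It was -2.61 within the dim arrays, where Swiss 3 is the only non-adipogenic line. Within the bright arrays, where Swiss 19 is the only preadipose line, it was -1.96. A pseudocount of 4 in place of 32 gave -3.16 and a call (adjusted p = 0.0494). A fit of all arrays with the line as a random block also called it, with the limit of that fit given below.

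The non-adipogenic lines differed from each other for Plagl1 (limma F test, adjusted p = 2.02e-09). The preadipose lines did as well (adjusted p = 0.0147), a call lost with the dim arrays alone (adjusted p = 0.0687), with the larger pseudocount (0.195) and with median centring (0.0699). A second Plagl1 probe set was above background in Swiss 3 only, at 233, and correlated with the first at r = 0.932. The third, at 41.4 to 146 in the 7 lines, correlated with it at r = 0.041.

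Mest, a paternally expressed gene for an alpha/beta-hydrolase fold protein of the endoplasmic reticulum, split the non-adipogenic lines. Its 1 probe set, 1423294_at, read 470, 432 and 545 in Swiss 2, 305, 560 and 408 in Swiss 8, 210, 226 and 237 in Swiss 9, and 223 and 323 in Swiss 19. It read 3611, 3517 and 2643 in Swiss 3 and 1769, 1560 and 1627 in Swiss 5, but 181, 144 and 98.7 in Swiss 22. Swiss 3 and Swiss 5 lay above all preadipose arrays and Swiss 22 lay below all of them. The mean of Swiss 3 was 23.1 times that of Swiss 22 (limma F test among non-adipogenic lines, adjusted p = 4.54e-10, and 3.23e-04 with the bright arrays alone). The range among preadipose lines was 0.42 on the log2 scale with an adjusted p of 0.0291, which passed 0.05 no longer with the dim arrays alone (0.0736), the larger pseudocount (0.145), median centring (0.0689) or without any 1 of 6 arrays of Swiss 2, Swiss 9 and Swiss 19 (0.0504 to 0.0724). The class difference was -1.03 ± 0.52 (SE, adjusted p = 0.496). Copg2, the coat protein gene that overlaps the Mest locus, kept to 563 to 732 in preadipose and 526 to 789 in non-adipogenic lines and was called in no test.

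Ndn, the necdin gene of the Prader-Willi/Angelman cluster and paternally expressed, was highest in Swiss 19. On 1437853_x_at the arrays read 477, 662 and 529 in Swiss 2, 687, 529 and 687 in Swiss 8, 602, 1385 and 1054 in Swiss 9, and 2071 and 1822 in Swiss 19. They read 526, 410 and 324 in Swiss 3, 427, 409 and 278 in Swiss 5, and 528, 470 and 326 in Swiss 22. Each preadipose mean was above each non-adipogenic one, although the lowest array of Swiss 2 lay below the highest of Swiss 3 and of Swiss 22. The class difference was 0.67 ± 0.26 (SE) with an adjusted p of 0.342, and 0.41 without Swiss 19 (limma on line means, adjusted p = 0.181). It was 0.27 within the dim arrays, where Swiss 3 is the only non-adipogenic line. Within the bright arrays, where Swiss 19 is the only preadipose line, it was 1.81. Preadipose lines differed (F test, adjusted p = 2.13e-04), a call lost among the 3 lines on dim arrays (adjusted p = 0.196).

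Ndn has 8 probe sets, of which 6 were above background in some line. The 4 next in brightness correlated with the first at r between 0.935 and 0.966 over 7 lines, and each put Swiss 19 first and Swiss 9 second. Their line means overlapped between the classes, because Swiss 22 exceeded Swiss 2 on all 4. On 1415923_at, for example, the preadipose means were 174 (Swiss 2), 422 (Swiss 8), 1094 (Swiss 9) and 1982 (Swiss 19), against 139 (Swiss 3), 226 (Swiss 5) and 401 (Swiss 22) in non-adipogenic lines. The lack of overlap on the brightest one therefore did not extend to the other 4. Those 4 were also called among the non-adipogenic lines (limma F test, adjusted p between 1.8e-04 and 0.024), where the brightest was not (0.948) unless arrays were centred on their medians (0.0138) or left without normalization (0.00122).

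Snrpn, a paternally expressed splicing protein gene measured together with Snurf, averaged 6674 ± 1603 (Swiss 2), 9444 ± 1866 (Swiss 8), 8062 ± 1135 (Swiss 9) and 4565 ± 32.3 (Swiss 19) in preadipose lines on 1415895_at (SD, n = 3 arrays, or 2 for Swiss 19). The non-adipogenic lines averaged 5690 ± 549.8 (Swiss 3), 7096 ± 1569 (Swiss 5) and 4686 ± 216 (Swiss 22), with n = 3 each. Swiss 19 was lowest, and only the preadipose lines were called (F test, adjusted p = 0.0131), a call lost within the dim arrays (0.345), with a pseudocount of 4 (0.0552), with scaling first (0.0684) and without either array of Swiss 19 (0.0799 and 0.0712). With median centring the non-adipogenic lines were called too (7.14e-05), as they were without 1 array of Swiss 5 (0.0224) or of Swiss 2 (0.0468). The other 3 shared probe sets above background had class differences of 0.50, 0.37 and 0.31. On 1421063_s_at the classes did not overlap, at 318 (Swiss 2), 426 (Swiss 8), 450.1 (Swiss 9) and 237 (Swiss 19) in preadipose lines, against 233 (Swiss 3), 139 (Swiss 5) and 215 (Swiss 22) in non-adipogenic ones, though Swiss 19 and Swiss 3 were close. That difference was not called (unadjusted p = 0.0227). Magel2, a MAGE family gene beside Ndn, lay between 80.4 and 204 and was called in no test. Ube3a, a ubiquitin ligase gene that is imprinted in neurons, averaged 569 to 989 in preadipose and 425 to 726 in non-adipogenic lines, with no call on any of its 6 probe sets.

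**Figure D2:**
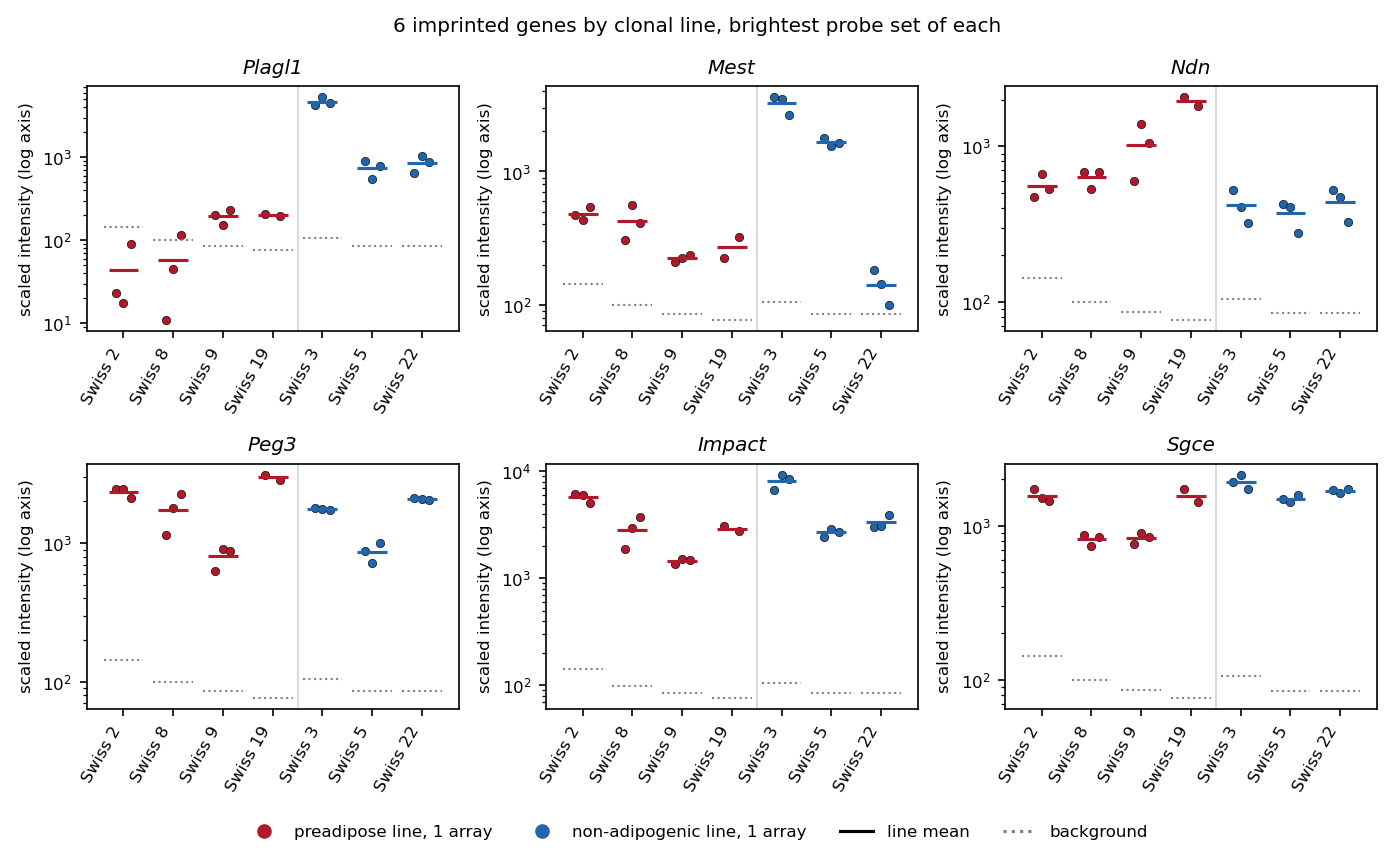
Scaled intensity (log axis) of the brightest probe set of Plagl1, Mest, Ndn, Peg3, Impact and Sgce on each of 20 arrays by clonal line; points are arrays, bars are line means and dotted lines the background of each line, with preadipose lines on the left. Plagl1 is the panel in which no preadipose array reaches a non-adipogenic one, and in the Mest panel Swiss 22 lies below all preadipose arrays.

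Peg3, a paternally expressed zinc finger gene, followed neither class. Its brightest probe set, 1433924_at, read 2473, 2447 and 2124 in Swiss 2, 1145, 1782 and 2257 in Swiss 8, 631, 913 and 885 in Swiss 9, and 3118 and 2846 in Swiss 19. It read 1794, 1759 and 1738 in Swiss 3, 875, 724 and 999 in Swiss 5, and 2123, 2083 and 2034 in Swiss 22. Each class held 1 low line, Swiss 9 (mean 810) and Swiss 5 (mean 866), and the arrays of these 2 lines overlapped. The class difference was 0.22 ± 0.35 (SE), and the line differences were called within preadipose (limma F test, adjusted p = 1.09e-05) and non-adipogenic lines (2.87e-04), of which the first held with the dim arrays alone and the second with the bright arrays alone. The 2 other probe sets above background followed it at r = 0.927 and 0.983. Usp29, a ubiquitin protease gene that shares the promoter region of Peg3, was above background in Swiss 19 only, at 107, and Zim1, a zinc finger gene of the same cluster, in no line.

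Impact, a paternally expressed gene for an inhibitor of the eIF2 kinase GCN2, was highest in Swiss 3 and Swiss 2. On 1415911_at the arrays read 6115, 6054 and 5022 in Swiss 2, 1892, 2930 and 3763 in Swiss 8, 1355, 1521 and 1480 in Swiss 9, and 3065 and 2779 in Swiss 19. They read 6659, 9302 and 8560 in Swiss 3, 2457, 2911 and 2742 in Swiss 5, and 3030, 3075 and 3924 in Swiss 22. Swiss 9 lay below every other array, and Swiss 3 above every other array. Line differences were called within preadipose (F test, adjusted p = 8.97e-06) and non-adipogenic lines (5.57e-06), the first also on the dim arrays alone (0.00182) and the second also on the bright ones alone (0.00553). The class difference of -0.47 ± 0.46 (SE) came to -0.010 without Swiss 3. A dimmer probe set also put Swiss 2 (660) and Swiss 3 (608) on top.

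Sgce, the epsilon-sarcoglycan gene of the Peg10-Sgce cluster, averaged 1563 ± 149 (Swiss 2), 816 ± 71.8 (Swiss 8), 836 ± 72.9 (Swiss 9) and 1569 ± 219 (Swiss 19) in preadipose lines on 1420688_a_at. The non-adipogenic lines averaged 1934 ± 202 (Swiss 3), 1496 ± 78.4 (Swiss 5) and 1690 ± 61.4 (Swiss 22), each with the SD over the arrays of the line. Swiss 8 and Swiss 9 lay apart below the rest (limma F test among preadipose lines, adjusted p = 5.53e-06). Among non-adipogenic lines the adjusted p of 0.0235 was 0.450 within the bright arrays, 0.147 with a pseudocount of 4 and 0.171 with scaling first, and was between 0.0571 and 0.130 without any 1 of 4 arrays of Swiss 3 and Swiss 5. Its neighbour Peg10, a retrotransposon-derived gene, lay between 103 and 164, and Ppp1r9a, a neurabin gene, between 60.2 and 303, and neither was called. Asb4, of the same cluster, was above background in no line.

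Gnas, which encodes the stimulatory G protein alpha subunit and other products, averaged 37127 ± 1355 (Swiss 2), 29329 ± 270.5 (Swiss 8), 30273 ± 220.0 (Swiss 9) and 25807 ± 431 (Swiss 19) in preadipose lines on 1450186_s_at. In non-adipogenic lines it averaged 28218 ± 1208 (Swiss 3), 27214 ± 936 (Swiss 5) and 26901 ± 952 (Swiss 22), again with the SD over arrays. Swiss 2 was above all other arrays, and only the preadipose lines were called (F test, adjusted p = 8.19e-04). That call was lost with a pseudocount of 4 (0.0837) and with scaling before the pseudocount (0.112), and with median centring the non-adipogenic lines were called as well (1.42e-06). Slc38a4, an amino acid transporter gene, averaged 1747 to 2353 in preadipose and 1250 to 1890 in non-adipogenic lines. On its brightest probe set, 1448889_at, it was called in both classes, with Swiss 3 lowest (F test, adjusted p = 0.0194 among preadipose and 0.00540 among non-adipogenic lines). The call among preadipose lines was lost with a pseudocount of 4 (0.123), with scaling first (0.144) and without 1 array of Swiss 8 (0.0803) or of Swiss 9 (0.0588), and that among non-adipogenic lines with scaling first (0.0529) and within the bright arrays (0.0911). A dimmer Slc38a4 probe set, 1428111_at, was also called in both classes but correlated with the brightest at only r = 0.251 over 7 lines. On it Swiss 2 was lowest, at 631, 715 and 505, and Swiss 3 read 680, 768 and 701. The arrays of Swiss 2 read 2242, 1764 and 2031 on the brightest one. Nap1l4, a nucleosome assembly protein gene, averaged 1922 to 2483 in preadipose and 1618 to 2189 in non-adipogenic lines. Its call among preadipose lines (adjusted p = 0.0468) was lost without any 1 of 16 arrays (0.0508 to 0.182), within the dim arrays (0.176), with a pseudocount of 4 (0.246) and in 3 further settings (0.0635 to 0.277). Among non-adipogenic lines its adjusted p was 0.0161, and it was 0.155 within the bright arrays, 0.130 with a pseudocount of 4, 0.153 with scaling first, and 0.0796 and 0.0625 without 1 array of Swiss 3 and of Swiss 5.

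Kcnq1ot1, the paternal noncoding RNA that silences its neighbours in cis, was above background in all lines on its brightest probe set, 1458161_at. It averaged 503 (Swiss 2), 385 (Swiss 8), 286 (Swiss 9) and 649.8 (Swiss 19) in preadipose lines, against 397 (Swiss 3), 250.5 (Swiss 5) and 87.9 (Swiss 22) in non-adipogenic lines. Arrays of neighbouring lines overlapped throughout this order, and no test called it. A second probe set gave the same low end (116 in Swiss 22; r = 0.937 over 7 lines), and 3 of its 6 probe sets were above background in no line. H19 averaged 147 to 258 in preadipose and 89.4 to 192 in non-adipogenic lines, near background, with single arrays from 12.2 to 361.

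Among the noncoding RNAs Meg3, Rian, Mirg, Kcnq1ot1 and H19, 21 of 24 probe sets were above background. The F test called 14 of the 24 among preadipose lines (15.2% of all probe sets) and 16 among non-adipogenic lines (11.1% of all), all of them on Meg3, Rian and Mirg. Their median class difference was -0.23, beside 0.0068 over all 98 members and 0.0055 over all probe sets. Since 17 of them read 3 transcripts of 1 cluster, they share a source. Of the 35 probe sets above background from paternally expressed genes, 18 were called among preadipose and 15 among non-adipogenic lines. Of the 35 from maternally expressed ones the numbers were 16 among preadipose and 18 among non-adipogenic lines. The calls on Meg3, Rian and Mirg given above made up 14 of these 16 and 16 of these 18. Over all probe sets above background the shares were 20.2% among preadipose and 14.8% among non-adipogenic lines.

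**Figure D3:**
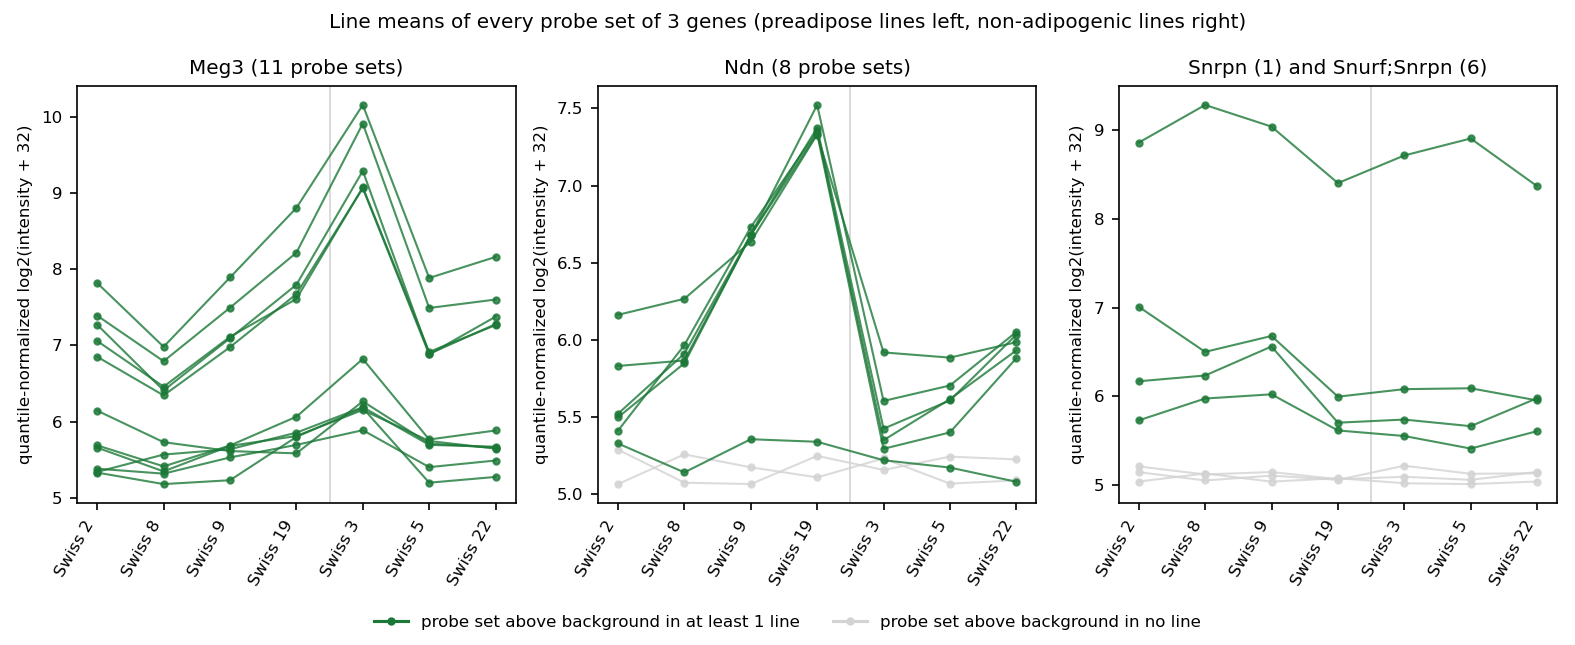
Line means (quantile-normalized log2 of intensity + 32) of every probe set of Meg3, Ndn and Snrpn, the last with those shared with Snurf, with preadipose lines on the left of each panel; grey lines are probe sets above background in no line. All 11 Meg3 probe sets peak in Swiss 3, and 5 of the 8 Ndn probe sets peak in Swiss 19.

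In 8 genes no probe set was above background in any line. These were Mkrn3, Zim1, Asb4, Nnat, Phlda2, Slc22a18, Ascl2 and Gatm, which include genes known from placenta (Phlda2, Ascl2) and brain (Nnat). The line means of their brightest probe sets ran from 15.2 to 102. Kcnq1, a potassium channel gene, was above background in Swiss 9 and Swiss 5 only. Blcap, Inpp5f and Commd1 were above background in all 7 lines and differed by 1.58, 1.23 and 1.75 times between the highest and the lowest line on their brightest probe sets. A second Commd1 probe set was called among non-adipogenic lines (limma F test, adjusted p = 0.017), from 443 in Swiss 3 to 729 in Swiss 22, where the brightest was not (0.40). Blcap and Inpp5f were called in no test.

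Swiss 3 was highest for 8 of the 26 genes above background, more than any other line, and it was also the most frequent highest line over all probe sets above background, at 23%. It was highest for 6 of the 14 genes whose brightest probe set was called (Meg3, Mirg, Mest, Plagl1, Sgce and Impact), beside 22% of all called probe sets above background, and whether these shares differ was not tested. It also had the lowest level of Mki67, a marker of dividing cells, which averaged 4546 (Swiss 2), 3709 (Swiss 8), 2927 (Swiss 9) and 3372 (Swiss 19) in preadipose lines, against 1170.0 (Swiss 3), 2637 (Swiss 5) and 3197 (Swiss 22) in non-adipogenic lines. The part of this Mki67 difference in the Swiss 3 values was not tested. Swiss 5 was highest for none of the 26 genes, and for 8.76% of all probe sets.

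**Figure D4:**
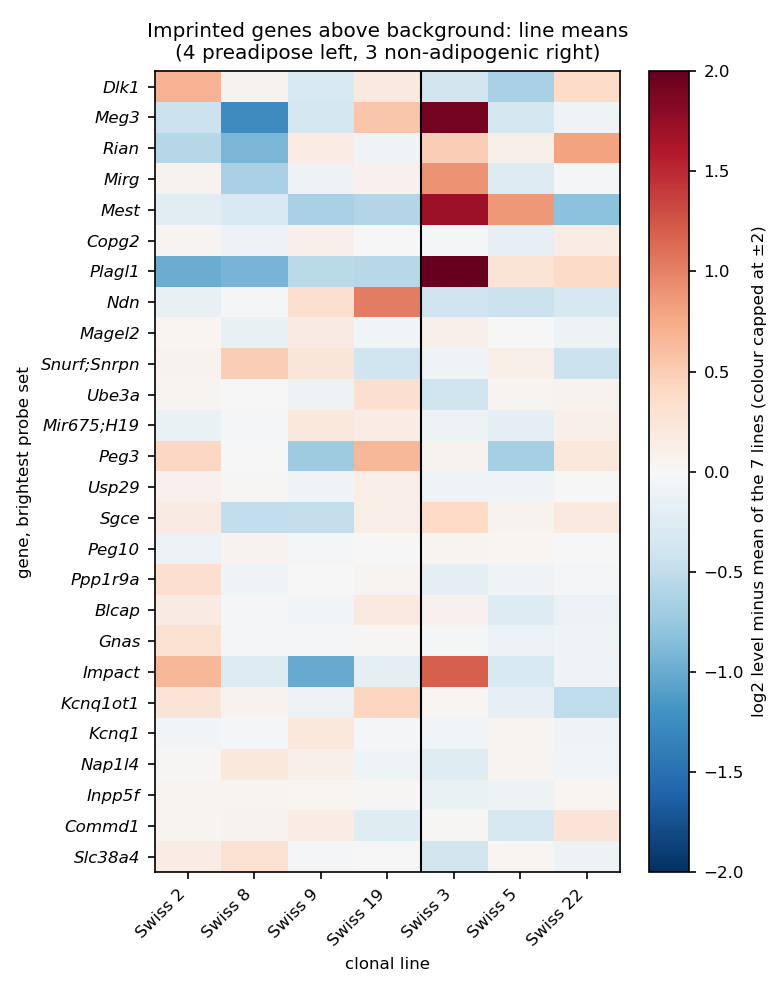
Log2 level of each line minus the mean of the 7 lines for the 26 imprinted genes above background, each by its brightest probe set, with the 4 preadipose lines left of the vertical rule and the colour capped at ±2. The deepest red lies in the Swiss 3 column at Meg3, Mest and Plagl1, and Impact is high in both Swiss 3 and Swiss 2.

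None of the 98 member probe sets passed the test between the classes. With limma on the 7 line means, 0 of the 98 were called higher in preadipose lines, where 0.275% of all probe sets were, and 0 were called lower, where 0.544% were (0.819% in either direction). Over probe sets above background the shares were 0.367% higher and 0.724% lower. An unadjusted p under 0.05 was reached by 6 of the 98, beside 12.6% of all probe sets (5.76% higher and 6.81% lower in preadipose lines): 2 of Rian and 1 of Plagl1, all lower in preadipose lines, and 1 of Ndn and 2 shared by Snurf and Snrpn, all higher. When all arrays were fitted with the line as a random block, 8 were called, a share of 8.16% beside 8.09% of all probe sets in that fit. These were 2 of Rian, 2 shared by Snurf and Snrpn, and 1 each of Plagl1, Mest, Ndn and Sgce. That fit used 1 correlation between arrays of a line, 0.174, for all probe sets. Where lines differ more than that, the fit can understate the spread between lines.

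Without overlap of the line means, 2 of the 98 were higher in preadipose lines, where 5.43% of all probe sets were, and 2, both of Plagl1, were lower, where 6.14% were (11.6% in either direction). Over probe sets above background these shares were 6.26% higher and 7.39% lower. With 4 members of 98 in either direction, this was below the background share. These counts use the log2 line means. The dimmer Plagl1 probe set, 1450533_a_at, was above background in Swiss 3 only, and on scaled intensity its classes overlapped, with 16.8 in preadipose Swiss 2 against 14.4 in non-adipogenic Swiss 5.

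The Rian difference of -0.83 ± 0.27 (SE, adjusted p = 0.255) came to -0.84 within the dim and -0.59 within the bright arrays. In the dim arrays Swiss 3 is the only non-adipogenic line, and in the bright arrays Swiss 19 is the only preadipose line. The class difference within each part thus rests on 1 clone of 1 class. For Meg3 the difference, -0.86 ± 0.61 (SE, adjusted p = 0.682), was -2.57 within the dim arrays and 0.13 within the bright ones, and it was -0.15 without Swiss 3. For Dlk1 it was 0.38 ± 0.29 (SE, adjusted p = 0.714), positive also within the dim (0.52) and the bright arrays (0.42), but -0.18 with arrays centred on their medians. Of the sum of squares of a member probe set above background, the median share between the classes was 15.2%, that between lines of a class 49.2% and that between arrays of a line 27.5%. Over all such probe sets the medians were 6.74%, 34.1% and 50.8%. The range between lines had a median of 0.43 on the log2 scale among preadipose and 0.40 among non-adipogenic lines for members above background, against 0.26 among preadipose and 0.19 among non-adipogenic lines for all probe sets above background.

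**Figure D5:**
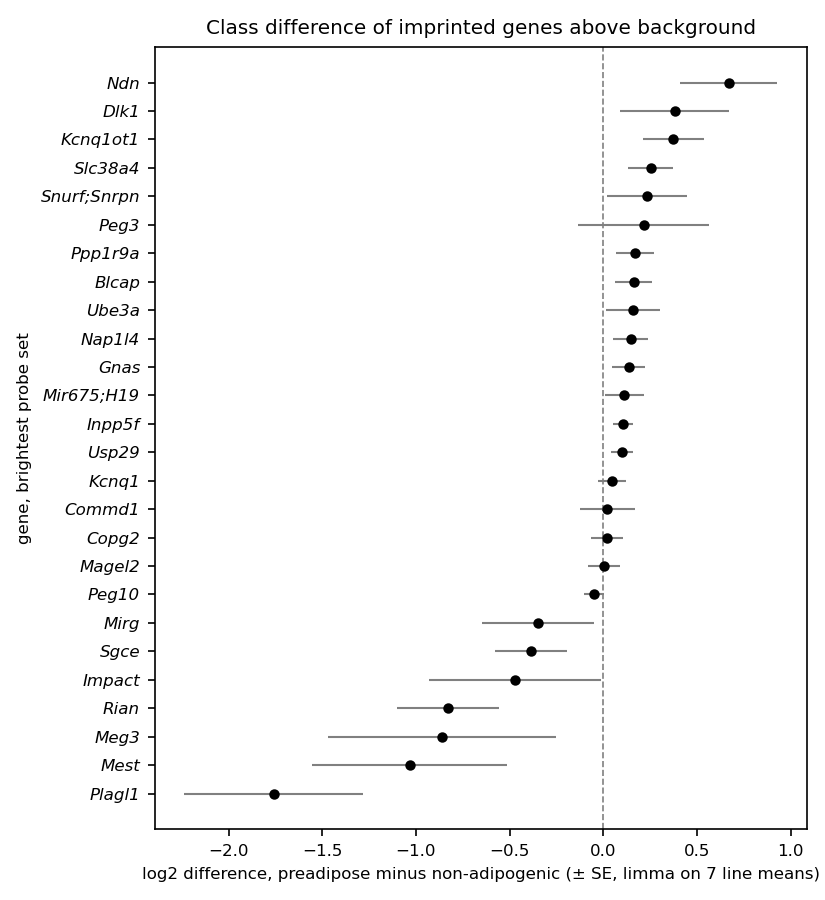
Log2 difference, preadipose minus non-adipogenic lines, of the 26 imprinted genes above background by their brightest probe set; points are limma estimates on 7 line means and bars ± 1 SE. The values run from -1.76 for Plagl1 to 0.67 for Ndn, and none passed the adjusted threshold.

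Genes that read or keep imprints were listed beside the members: the zinc finger proteins and partners that hold methylation at control regions, DNA methyltransferases, TET enzymes, cohesin and Polycomb subunits. All 28 were measured, 27 of them above background in some line. Between the classes limma called 0 of the 28, beside 0.819% of all probe sets. The F test, on the brightest probe set of each, called 10 of the 28 among preadipose and 15 among non-adipogenic lines. Over all probe sets above background the shares were 20.2% among preadipose and 14.8% among non-adipogenic lines. An unadjusted p under 0.05 was reached by 3 of them, beside 12.6% of all probe sets. Trim28, the corepressor that ZFP57 recruits, and Eed, a Polycomb subunit, were the 2 of 28 whose line means did not overlap, below the 11.6% of all probe sets. Trim28 averaged 13139 ± 1430 in preadipose and 10311 ± 2448 in non-adipogenic lines (SD over lines, log2 difference 0.32, limma adjusted p = 0.379). For Eed the means were 1351 ± 113 in preadipose and 964 ± 120 in non-adipogenic lines (log2 difference 0.34, limma adjusted p = 0.0732). Zfp57 itself was above background in all lines, at 465 to 602 in preadipose lines. In non-adipogenic lines it averaged 764 (Swiss 3), 440 (Swiss 5) and 400 (Swiss 22). The non-adipogenic lines differed (limma F test, adjusted p = 0.00854), and the preadipose lines were not called (0.512).

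A further list of 48 imprinted genes had 40 measured, 35 of them above background. Of the 40, 1 was called between the classes, beside 0.819% of all probe sets. Zdbf2, a paternally expressed zinc finger gene, averaged 157 (Swiss 2), 131 (Swiss 8), 98.0 (Swiss 9) and 200.4 (Swiss 19) in preadipose lines, against 385 (Swiss 3), 579.8 (Swiss 5) and 399 (Swiss 22) in non-adipogenic lines. All preadipose means lay below all non-adipogenic ones, though Swiss 2, Swiss 8 and Swiss 9 were close to background. The log2 difference was -0.59 ± 0.093 (SE), with an adjusted p of 0.0428 by limma on the line means. That call was lost in 15 of 39 alternative settings, among them leaving out any line except Swiss 19 (adjusted p between 0.0744 and 0.145), while the sign held in all of them. The median difference of this list was 0.0058, beside 0.0055 over all probe sets.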

How the data were processed

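RNA of 7 clonal Swiss 3T3 lines was measured on 20 arrays. The deposited values were linear intensity values per probe set, and how they were summarized and scaled is not given in the sources used here. Per the labels' protocols, total RNA was primed with oligo-dT and transcribed into biotinylated RNA. Array mean intensity ran from 26.8 to 160.2, so the number of arrays and their brightness limit the precision.

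Values were taken as log2(intensity + 32) and quantile-normalized, because the array medians differed by 0.61. The pseudocount compresses differences of dim probe sets. For levels, each array was scaled to a mean of 500, taken without the lowest and highest 2% of probe sets, and folds are ratios of these. The platform annotation gave 34945 probe sets 1 symbol and 932 several, and 9160 were not named here. A gene is represented by its probe set with the highest mean. Class differences are preadipose minus non-adipogenic, from limma 3.58.1 in R 4.3.3 on 7 line means. Differences among the lines of a class come from the moderated F test of limma, with 1 term per line on 20 arrays. Both used Benjamini-Hochberg adjustment over 45037 probe sets at a threshold of 0.05, and the fits were tested on simulated data.

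The labels do not say whether the arrays of 1 line are separate cultures, and F test p-values measure only the spread between these arrays, which may be technical. In the absence of a scan batch in the sources used here, the largest gap in spike level, 1.62-fold, divided the arrays by brightness. Alternatives were other pseudocounts (4 and 128), median centring or no normalization, scaling first, no dim probe sets, 1 probe set per gene, the replicate number, the line as a random block, the brightness parts, and leaving out each array or line. F tests within a brightness part were chosen after seeing the data.

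The rule for named genes gave all 37 members a mention and line values to those called in a test or, failing that, without overlap of line means. From each further list it named up to 4 called genes or, with none called, up to 2 without overlap. Zfp57 and Mki67 were named outside it, after their values were seen. Against the rule, Slc38a4 and Nap1l4, both called, were given mostly by the range of each class. Kcnq1ot1, called in no test, was given by line. The members and lists were chosen with earlier results of these data known.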

Additional observations from a re-analysis of the deposited data

Results flagged for a closer look

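Kcnq1, a potassium channel gene, had 1 preadipose line far from the others. Swiss 9 was highest of the 4 preadipose lines, and the gap to the next line was 0.953 of the whole range of 0.254 on the log2 scale. The value rests on 1 array of Swiss 9, which read 367, beside 83.7 and 33.1 on the other 2 arrays of that line. Of the 26 genes tested in this way this was the only one past the critical value, and chance gives about 1 such result in 20 groups. No cause was tested.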

How the results depend on the processing

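The sign of the class difference turned in 16 combinations of gene and setting: with arrays centred on their medians for Dlk1 (-0.18), Snrpn (-0.32), Peg3 (-0.18), Gnas (-0.47), Nap1l4 (-0.34) and Slc38a4 (-0.21), with no normalization for Dlk1 (-0.31), Snrpn (-0.45), Peg3 (-0.31), Gnas (-0.60), Nap1l4 (-0.46) and Slc38a4 (-0.34), within dim arrays for Peg3 (-0.15), within bright arrays for Meg3 (0.13) and Snrpn (-0.21), and for Peg3 with 1 line left out (-0.050 without Swiss 5, up to 0.49 without Swiss 9). Without normalization the median of all probe sets shifted by -0.12. Member probe sets called between the classes numbered 0, but 1 with a pseudocount of 4 and 8 with lines fitted as a random block. All probe sets called numbered 369, but 244 with a pseudocount of 4, 3 with median centring, 2 with no normalization, 92 with scaling first, 625 without dim probe sets, 3645 with the random block, 13 within dim and 0 within bright arrays, and 41 to 606 without 1 line. The within-part class fits leave 1 class with a lone line, which is assumed to vary like the others. Members called among preadipose lines numbered 34, but 67 with median centring, 71 with no normalization, 13 with 1 probe set per gene and 19 within dim arrays. Over all probe sets these calls numbered 6864, but 4023 with a pseudocount of 4, 28754 with median centring, 27917 with no normalization, 3609 with scaling first, 4204 with 1 per gene and 2842 within dim arrays. Members called among non-adipogenic lines numbered 33, but 62 with median centring, 51 with no normalization, 21 with scaling first and 11 with 1 per gene. Over all probe sets these calls numbered 5000, but 3138 with a pseudocount of 4, 24129 with median centring, 22910 with no normalization, 2831 with scaling first, 2986 with 1 per gene and 2658 within bright arrays. With 1 array left out, members called ranged over 0 to 0 between the classes, 26 to 35 among preadipose and 27 to 35 among non-adipogenic lines, and all probe sets called over 306 to 407, 4851 to 7063 and 3882 to 5315. The replicate numbers did not pair the arrays: deviations of same-numbered arrays correlated between -0.0442 and 0.0528 over 57 pairs, and with the replicate block 0 members were called between the classes (Plagl1 -1.75) and 31 among preadipose lines. The cause of these shifts was not tested.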
